A study of Homo sapiens with 2 samples.

Results

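Keratins are the intermediate filament proteins of epithelial cells, and the array data described here cover 48 keratin genes among 13753 named genes other than small RNAs. The members were found by symbol, as KRT followed by a number and at most 1 further letter. This pattern uses no measured value, but the members were chosen with earlier results of these data known. They comprised 5 keratins of simple epithelia, 17 of stratified epithelia, 22 of hair and its root sheaths, 3 that fall in none of these classes (KRT23, KRT24 and KRT80), and KRT42P, a pseudogene whose symbol fits the same pattern. HT29 is an established line derived from a human colon adenocarcinoma. Its cells had been transfected with an siRNA directed at GATA6, which encodes a zinc finger factor that regulates transcription in gut epithelium, or with a control siRNA, and the total RNA of each condition was hybridized to 1 array. All results therefore lack a replicate check and carry no p-value, and the small number of arrays limits how precise they are.

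A keratin filament is built from heterodimers of a type I (acidic) and a type II (basic) chain, so that neither type polymerizes alone. Each epithelium uses its own chains. KRT8 and KRT18 form the filaments of simple epithelia, to which the gut adds KRT19 and, in cells that differentiate towards the surface, KRT20. KRT5 and KRT14 mark the basal layer of stratified epithelia and KRT1 and KRT10 the cornifying layers of the epidermis. The hair keratins belong to the follicle. In pathology, colon tumors are typically recognized by KRT20 with little KRT7.

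The deposited values had been centred for each gene on the middle of the 2 arrays, which left equal and opposite values in the 2 arrays (to within 1e-06). They give the difference between the arrays and no expression level. A value near 0 can thus belong to a keratin that did not differ or to a keratin that HT29 cells do not express, and the colon identity of the cells could not be checked by marker levels. Each difference is the value of the GATA6 siRNA array minus that of the control siRNA array, on the log2 scale, with base 2 taken as the base of the values. The target of the siRNA, GATA6, had a value of -0.58 in the GATA6 siRNA array and 0.58 in the control siRNA array, a difference of -1.15 and 45.0% of the control level. As a measure of error inside the arrays, 470 genes with 2 probe sets were used. Within a gene, the differences of its probe sets had an SD of 0.19. Both probe sets were read in the same 2 RNA samples on the same pair of arrays, so this SD holds no variation between transfections or arrays. Probe sets of 1 symbol can be assigned to different transcripts, as those of KRT18 were. The SD may therefore hold differences between transcripts beside error. The SD over all genes was 0.25. A size of 1.4-fold (0.49 on the log2 scale) was used to call a gene higher or lower. The study's methods set this size for decreases, and its use for increases was chosen here.

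KRT20, KRT80 and KRT19 were the keratins that were higher by over 1.4-fold in the GATA6 siRNA array, and no keratin was lower by that size. The 3 genes make up 6.25% of the 48 keratins. Among all named genes 3.56% were higher and 2.61% lower by over 1.4-fold, together 6.17% in either direction, so the share of keratins past 1.4-fold was near that of all genes and is no result about the family. Of the 48 keratins, 38 (79.2%) had differences smaller than the SD between probe sets, as did 72.7% of all genes. Within 0.1 of 0 lay 30 keratins (62.5%), compared with 53.8% of all genes. The plot of all 48 members shows 5 genes set apart at the upper end and the remainder close to 0.

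**Figure D1:**
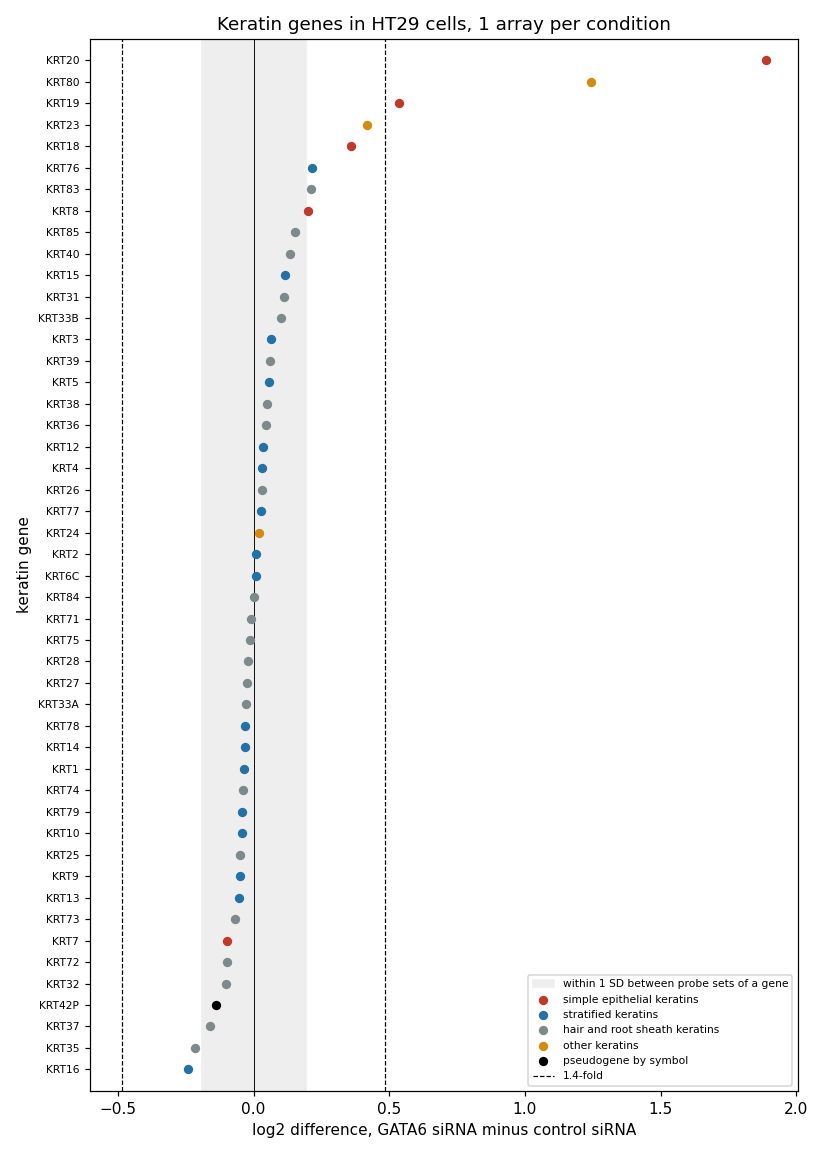
Log2 difference (GATA6 siRNA minus control siRNA, horizontal axis) of each of the 48 keratin genes, sorted by size and colored by class, with 1 array per condition. Dashed lines mark 1.4-fold and the gray band marks 0.19, the SD between probe sets of 1 gene; KRT20, KRT80 and KRT19 lie beyond the upper line and no gene lies beyond the lower one.

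Among the keratins of simple epithelia the members differed widely. KRT20, the type I chain of differentiated gut epithelium, had a value of 0.94 in the GATA6 siRNA array and -0.94 in the control siRNA array. The difference of 1.89 corresponds to a 3.70-fold higher signal and to 9.82 times the SD between probe sets, and it placed KRT20 as the 4th largest increase among the 13753 genes. KRT19, a type I chain without the usual tail domain that is found in simple and ductal epithelia, had 0.27 in the GATA6 siRNA array and -0.27 in the control siRNA array. It was 1.45-fold higher (0.54, 2.79 times the SD between probe sets), rank 381 among the increases.

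KRT18 and KRT8, the partners that make up the basic filament of these cells, did not reach 1.4-fold. KRT18 had 0.18 in the GATA6 siRNA array and -0.18 in the control siRNA array as the mean of 2 probe sets, a difference of 0.36. It was the only keratin measured by more than 1 probe set, and the 2 differed: the difference was 0.22 by the first and 0.50 by the second, of which the second alone passes 1.4-fold. KRT8 had 0.10 in the GATA6 siRNA array and -0.10 in the control siRNA array, and its difference of 0.20 was about the size of the SD between probe sets (1.04 times). KRT8 and KRT18 are neighbors on opposite strands whose annotated spans overlap, and both have processed pseudogenes elsewhere in the genome. The extent to which such copies contribute signal was not tested. The named pseudogenes KRT18P55, KRT19P2 and KRT8P41 had differences of 0.17, 0.12 and -0.15.

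KRT7, the type II chain of ducts and glands, had -0.05 in the GATA6 siRNA array and 0.05 in the control siRNA array. Its difference of -0.10 was 0.51 times the SD between probe sets, and turned to 0.02 when ribosomal protein genes were centred on 0. Over the 5 simple epithelial keratins, 2 were higher and 0 lower by over 1.4-fold (3.56% and 2.61% among all genes), 4 had values above 0, and the median was 0.36, against a median of 0 for all genes. When the arrays were scaled so that ribosomal protein genes centred on 0, a shift of 0.11 for every gene, the median was 0.47. The 5 genes spanned from -0.10 to 1.89, so the median does not describe KRT20 or KRT7.

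RefSeq promoter sequences of assembly GRCh38.p14 were matched by gene ID to 32 of the 48 keratins, and the 250 bases before the start given there were searched on both strands. That start was the edge of the annotated gene span in 27 of the 32 keratins and lay inside the span in 5 (KRT8, KRT25, KRT40, KRT73 and KRT84). KRT20 is shown because it had the largest difference, and KRT12 because it is the neighbor of KRT20 on chromosome 17 and had a difference of 0.04. In both, the start was the edge of the span. KRT80, KRT19, KRT18 and KRT23 were not among the matched genes. The sequences run 5′ to 3′ on the gene's strand (minus in both genes), at chr17:40885243-40885492 for KRT20 and chr17:40867224-40867473 for KRT12. Capitals mark matches to any motif searched: AGATAA or AGATAG or TGATAA or TGATAG for GATA factors, TTTATG for CDX factors, TATAAA for the TATA box, TGANTCA for AP-1 and GGGCGG for the GC box.
KRT20: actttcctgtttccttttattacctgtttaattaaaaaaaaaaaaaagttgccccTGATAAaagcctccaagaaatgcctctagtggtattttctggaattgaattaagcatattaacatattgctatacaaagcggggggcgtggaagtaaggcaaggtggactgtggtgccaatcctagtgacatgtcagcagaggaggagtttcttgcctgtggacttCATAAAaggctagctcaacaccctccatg
KRT12: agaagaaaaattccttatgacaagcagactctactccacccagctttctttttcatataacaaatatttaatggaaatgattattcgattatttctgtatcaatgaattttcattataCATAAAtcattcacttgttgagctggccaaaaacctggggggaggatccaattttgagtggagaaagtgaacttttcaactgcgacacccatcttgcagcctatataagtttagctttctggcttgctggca

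In the KRT20 sequence TGATAA lay 195 to 190 bases before the start and CATAAA, the reverse complement of the CDX word, 29 to 24 bases before it, and the 2 did not overlap. KRT12 held CATAAA at 132 to 127 bases before its start and no GATA word. A GATA word occurred in 16 of 32 keratin promoters (50.0%), compared with 22.9% of 27305 promoters of the same length. Among these 16, KRT20 was the only gene past 1.4-fold, and the other 15 lay between -0.16 and 0.21 with a median of -0.02. The 16 keratins without a GATA word lay between -0.22 and 0.20 and had a median of 0.03. KRT20 was the only gene past 1.4-fold among all 32, as KRT80 and KRT19 had no matched promoter. A comparison of calls with and without a GATA word thus rests on 1 gene and decides nothing. The CDX word was present in 15 of the 32 keratin promoters (46.9%, against 10.02% of all), TATAAA in 18 (56.3%, against 11.1%), GGGCGG in 4 (12.5%, against 42.3%) and the AP-1 word in 0 (against 6.60%). These shares take no account of base composition or of the relatedness of keratin genes, so they are no result about GATA sites in keratins. A match describes the letters only and is no evidence of binding.

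Of the keratins outside the simple, stratified and hair classes, KRT80 differed most. KRT80, a type II chain that occurs in many epithelia and lies close to desmosomes, had 0.62 in the GATA6 siRNA array and -0.62 in the control siRNA array. It was 2.37-fold higher (1.24, 6.47 times the SD between probe sets) and ranked 29th among the increases of all genes. KRT23, a type I chain known for its induction by histone deacetylase inhibitors in pancreatic cancer cells, had 0.21 in the GATA6 siRNA array and -0.21 in the control siRNA array. Its difference of 0.42 (1.34-fold) fell short of 1.4-fold with the deposited scaling and passed it after ribosomal protein centring (0.53). KRT24, the remaining named type I chain of this class, had a difference of 0.02, and KRT222 was not analysed here.

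Keratins of stratified epithelia showed little difference. Of 17 named members 0 passed 1.4-fold in either direction, against 3.56% of all genes higher and 2.61% lower. At those shares a class of this size would hold few calls, so their absence is no result about it. Of the 17 members, 9 lay above 0 and 8 below, and the median was 0.01 (0.12 after ribosomal protein centring). The farthest were KRT16, a chain of wounded epidermis (-0.24), KRT76, a chain of oral epithelium (0.21), KRT15, a basal chain that also marks the hair follicle bulge (0.12), and KRT3, a chain of the cornea (0.06). KRT16 had the lowest value of all 48 keratins. KRT6A, KRT6B and KRT17 were not analysed here. KRT14 and KRT16, like KRT6C, have close paralogs that may share probe signal, so their values are uncertain.

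Hair and root sheath keratins likewise held 0 calls among 22 named members, against 3.56% of all genes higher and 2.61% lower. With so few members this too is no result about the class. KRT34, KRT81, KRT82 and KRT86 were not analysed here. Of the 22 members, 9 lay above 0, 12 below and KRT84 at 0, and the median was -0.01 (0.10 after ribosomal protein centring). The farthest were KRT35 (-0.22), KRT83 (0.21), KRT37 (-0.16) and KRT85 (0.15), all of them chains of the hair fiber. For comparison, 84 keratin-associated proteins, which embed the filaments of the hair fiber, had a median of -0.01 and 0 calls, against the same shares of all genes. Their differences ranged from -0.34 for KRTAP12-4 to 0.18 for KRTAP10-7. The SD of the differences was 0.10 for the 39 stratified and hair keratins and 0.10 for the keratin-associated proteins. It was 0.77 for the 5 simple epithelial keratins, which rests largely on KRT20 (1.89). KRT7, KRT8, KRT18 and KRT19 lay between -0.10 and 0.54. Genes that the cells do not express would also give a small SD. These SDs describe genes in 1 pair of arrays and were not tested.

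**Figure D2:**
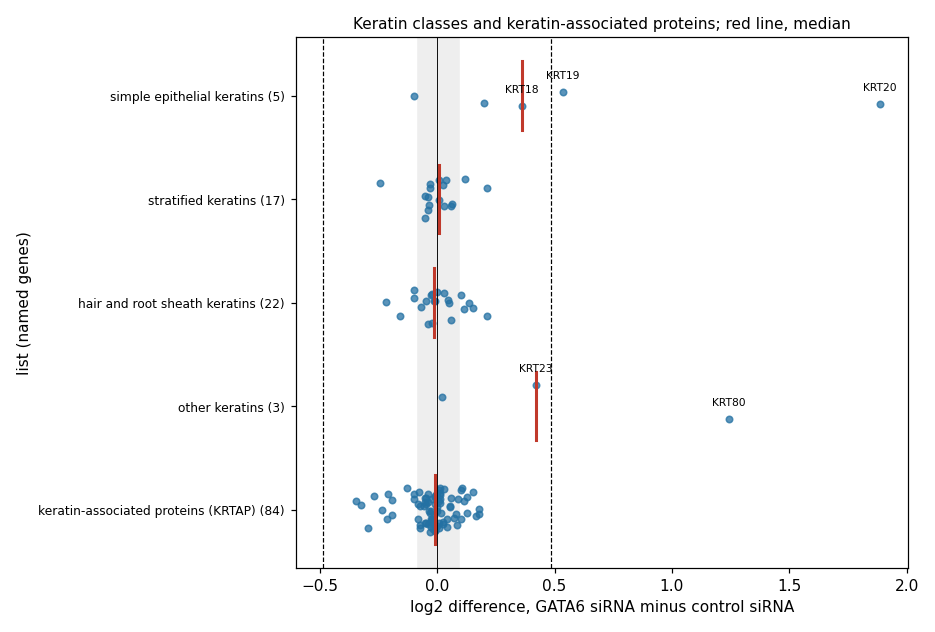
Log2 difference (horizontal axis) of each named gene in 4 keratin classes and in the keratin-associated proteins, with the number of genes in brackets; points are genes, spread vertically for legibility. Red lines are medians (0.36 for simple epithelial and 0.01 for stratified keratins), dashed lines 1.4-fold, and the gray band the interquartile range of all genes (-0.08 to 0.09).

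Since type I and type II chains assemble in pairs, the differences of partner chains were set side by side. Of the 26 type I keratins 2 were higher by over 1.4-fold, and of the 21 type II keratins 1 was, with medians of 0.02 and 0.01. Among all genes 3.56% were higher by that size, so these small counts are no result about either type. The 3 simple epithelial type I partners of KRT8 all exceeded it: KRT18 by 0.16, KRT19 by 0.34 and KRT20 by 1.69 on the log2 scale. Only the differences for KRT19 and KRT20 were larger than the SD between probe sets. In the stratified pairs both chains stayed close to 0, with 0.06 for KRT5 and -0.03 for KRT14, -0.03 for KRT1 and -0.04 for KRT10, 0.03 for KRT4 and -0.05 for KRT13, and 0.06 for KRT3 and 0.04 for KRT12. In the pair of KRT2 and KRT10, KRT2 had 0.01. The type I minus type II difference in these pairs lay between -0.09 and -0.01.

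Keratin genes lie in 2 clusters, the type I genes on chromosome 17 and the type II genes on chromosome 12, where KRT18 is the only type I gene. The 26 named members on chromosome 17 and 22 on chromosome 12 were therefore examined in genomic order. The higher keratins did not form a single block. KRT20 lay between KRT12 (0.04) and KRT23 (0.42), with KRT10 (-0.04) and KRT39 (0.06) next to these. KRT19 lay between KRT15 (0.12) and the non-coding gene LINC00974 (0.14). KRT80 lay at the end of its cluster, between the autophagy gene ATG101 (-0.23) and LINC00592 (-0.0043), with KRT7 beyond. KRT8 and KRT18 lay at the opposite end of that cluster, next to KRT78 (-0.03) on the keratin side and to EIF4B, a translation initiation factor (0.25), on the other. No direct neighbor of KRT20, KRT80 or KRT19 among the named genes passed 1.4-fold. Among all genes 6.17% did in either direction, so with so few neighbors this absence is no result about them.

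**Figure D3:**
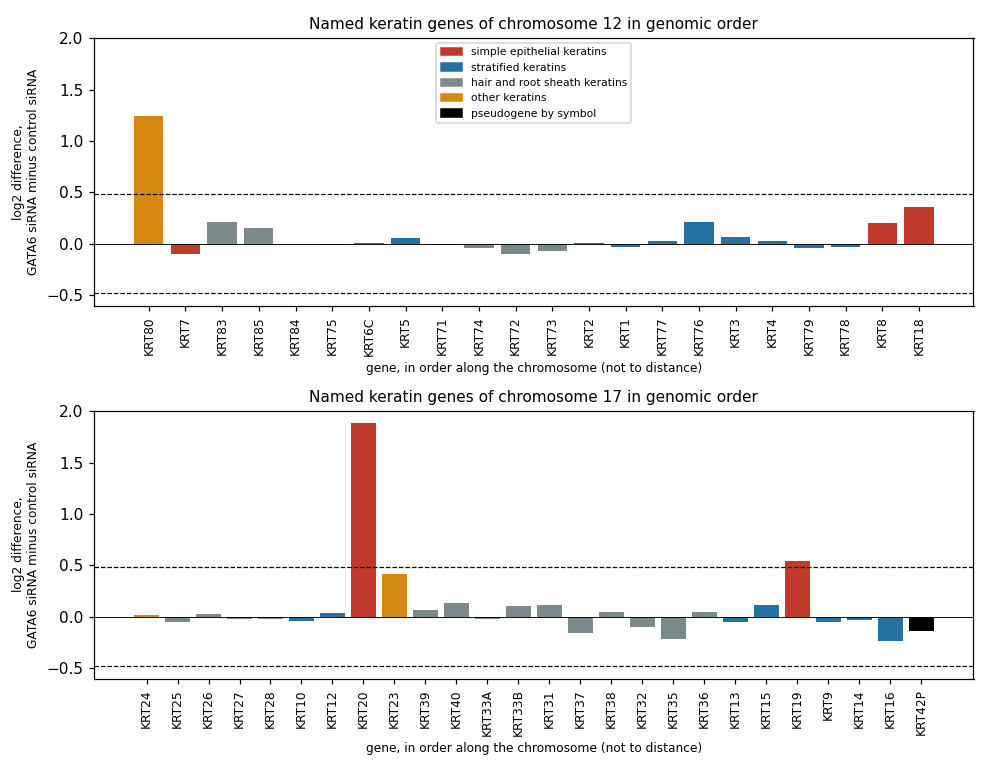
Log2 difference (vertical axis, bars from 0) of the named keratin genes in their order along chromosome 12 (upper panel) and chromosome 17 (lower panel), colored by class; positions show order and not distance. KRT80 stands at the end of the chromosome 12 genes that is opposite to KRT8 and KRT18, and KRT20 (1.89) stands beside KRT12 (0.04) and KRT23 (0.42).

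Keratin filaments are anchored at desmosomes and hemidesmosomes by plakins and by armadillo proteins. Of 14 named genes in a list of plakins and keratin-binding proteins, 4 were higher (28.6%, against 3.56% of all genes) and 1 was lower past 1.4-fold, and the list's median was 0.01. The list also held ALB, albumin, and KRTCAP2, which are not known as either, and without them 4 of 12 were higher (33.3%) and the median was 0.09. The higher members were the plakin PPL, periplakin, with a difference of 1.08 (2.12-fold), JUP, plakoglobin (0.88), the cytoskeletal linker MACF1 (0.68) and DSP, desmoplakin (0.53). PKP2, plakophilin 2, was lower (-0.54) with the deposited scaling but fell short of 1.4-fold after ribosomal protein centring (-0.43). TRADD, a death domain adaptor that binds KRT18, had a difference of -0.47. Envoplakin, EVPL, had -0.25 and epiplakin, EPPK1, 0.32. The members thus differed in both directions, and the median covers both. This list and those below were chosen with earlier results of these data known, so their shares of calls only describe these arrays.

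The cornified envelope, the protein shell of terminally differentiated keratinocytes, was represented by 21 named genes. SCEL, sciellin (1.53), and KLK5, a peptidase of desquamation (0.64), were higher by over 1.4-fold (9.52% of the list, against 3.56% of all genes), while none was lower and the median was 0.04. SPRR1B, a small proline-rich envelope protein, had a difference of 0.45, which passed 1.4-fold after ribosomal protein centring (0.56). Small differences were seen for involucrin, IVL (0.02), for LORICRIN (0.07) and for filaggrin, FLG (0.08).

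Among 18 named regulators of keratin genes, TRPS1, a repressor of the GATA family (0.81), and GRHL3, a grainyhead-like factor of surface epithelia (0.58), were higher by over 1.4-fold (11.1%, against 3.56% of all genes) and none was lower. TFAP2C, an AP-2 factor (0.47), fell short of that size with the deposited scaling and passed it after ribosomal protein centring (0.58). KLF5 had the lowest value (-0.40). The median was 0.17, and 15 of the 18 lay above 0. The gut homeodomain factors CDX1 and CDX2 had differences of 0.11 and 0.02.

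Intermediate filament genes other than keratins showed no call among 8 named members, against 3.56% of all genes higher and 2.61% lower. DES, desmin, had a difference of -0.41 as the mean of 2 probe sets, LMNB1 of -0.34 and LMNB2 of -0.29, the last 2 being the B-type nuclear lamins. LMNA had 0.16 and VIM, the filament of mesenchymal cells, 0.03 as the mean of 3 probe sets. The median of -0.10 became 0.01 after ribosomal protein centring. Of 7 named mesenchymal markers, VIM among them, and 3 blood and vessel markers, 0 passed 1.4-fold, against 3.56% higher and 2.61% lower among all genes. Of 7 named colon epithelial markers 2 were higher (28.6%, against 3.56% of all genes), CEACAM5, carcinoembryonic antigen (2.16), and EPCAM, an epithelial adhesion molecule, which barely passed the limit (0.49). The other 5 lay between -0.04 for GPA33 and 0.12 for TFF3, and the median of the list was 0.11. The part of other cell types in the keratin differences was not tested.

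**Figure D4:**
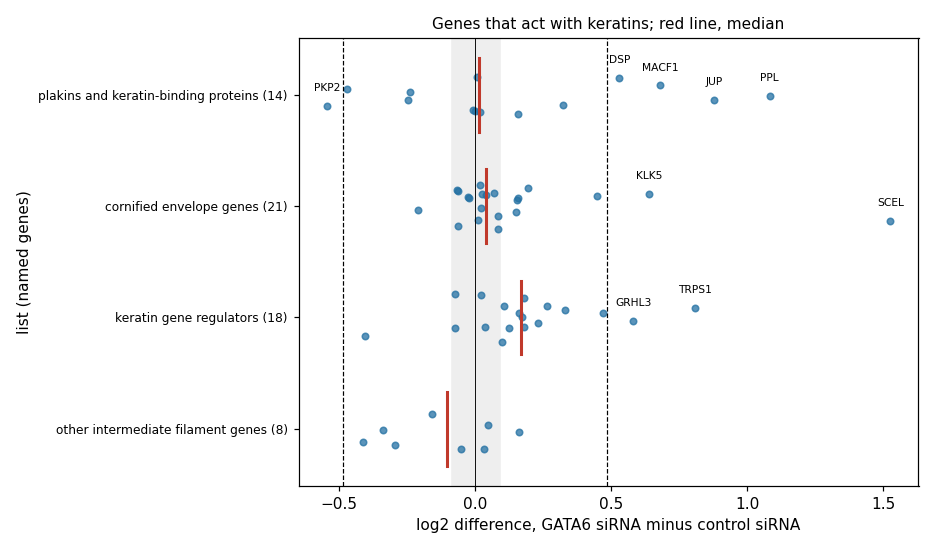
Log2 difference (horizontal axis) of each named gene in 4 lists of genes that act with keratins, with the number of genes in brackets; points are genes, red lines medians, dashed lines 1.4-fold, and the gray band the interquartile range of all genes. With the deposited scaling shown, PPL, JUP, MACF1 and DSP of the plakin list lie beyond the upper line and PKP2 beyond the lower one.

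Because 1 array per condition allows no error estimate, the dependence on scaling was examined for the keratins. KRT20, KRT80 and KRT19 passed 1.4-fold with the deposited scaling, with quantile normalization (1.76, 1.11 and 0.50) and after ribosomal protein centring, where each gained 0.11 (1.36 for KRT80 and 0.65 for KRT19). A constant gain could not remove a call of higher. Quantile normalization was run on the deposited values, which mirror each other, so it kept the order of the probe set differences. Neither is thus an independent check of the scaling between the arrays. KRT19 lay close to the limit of 0.49 with quantile normalization. Higher genes made up 57.7% of all calls with the deposited scaling, 49.2% with quantile normalization and 80.0% after ribosomal protein centring. After that centring 5.89% of all genes were higher. The near even split with quantile normalization was fixed in advance, because mirrored values were normalized, and says nothing about the arrays. The rise to 80.0% follows from the added constant.

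**Figure D5:**
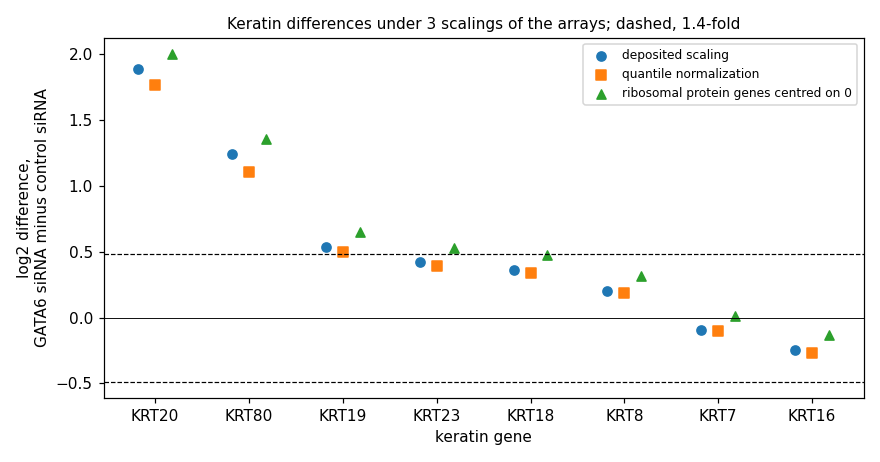
Log2 difference (vertical axis) of 8 keratins under the deposited scaling, quantile normalization and ribosomal protein centring; dashed lines mark 1.4-fold. KRT20, KRT80 and KRT19 lie beyond 1.4-fold under all 3 scalings, KRT23 only under ribosomal protein centring, and KRT7 changes sign (-0.10, -0.10 and 0.02).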

How the data were processed

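HT29 RNA of 1 GATA6 siRNA and 1 control siRNA transfection was hybridized to Affymetrix arrays (Human Gene 2.0 ST), per the study's methods, and the signals were processed with GeneSpring 12.6.1. Samples were grouped by the labels. The title of the control says that it was reanalyzed, which the sources used here do not explain. The authors deposited values per probe set relative to the median of the 2 arrays, on a logarithmic scale read here as log2. The sources used here do not give the log base, on which every fold rests, the summarization or the normalization between arrays. Any constant added before taking logarithms would make the differences of weak genes too small. Of 44629 probe sets, 15835 had 1 symbol, 0 had several and 28794 stayed unnamed. Probe sets of the same gene were averaged, and 1059 small RNA symbols were left out.

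With 1 array per group no test was made. Genes past 1.4-fold were counted with Python 3.11.15 and pandas 2.3.3, and the counting was tested on simulated data. The members and lists were chosen with earlier results of these data known. Named were all simple epithelial keratins, all members past 1.4-fold, the 4 farthest keratins of each class, all partner chains with both values and, per partner list, the members past 1.4-fold and the 3 farthest. Other genes, the keratin-associated proteins, the keratin pseudogenes and the promoter motifs were chosen after values were seen. Symbols, gene order and promoters came from RefSeq, assembly GRCh38.p14. The sources used here do not name the build of the array design. Alternatives were other scalings, probe set rules, sizes of a call and a filter on probe sets at 0.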

Additional observations from a re-analysis of the deposited data

How the results depend on the processing

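A 1.2-fold size gave 5 higher keratins in place of 3, with KRT18 and KRT23 added, and a 2-fold size left 2, KRT20 and KRT80. The count of lower keratins was 0 in each of these settings and under both scalings. With the ribosomal protein genes set to 0, 4 keratins were higher, KRT23 being added, and over all genes 810 were higher and 203 lower, in place of 489 and 359. A 2-fold size left 50 higher and 33 lower genes, and a 1.2-fold size gave 1408 and 1190. These changes follow from the size or from the constant that was added. Each of the 4 keratin class medians moved by less than 0.19, the SD between probe sets, in every alternative run. The hair and root sheath median changed sign with ribosomal protein centring. Most of these runs could hardly move the medians. Ribosomal protein centring added 0.11 to each, the probe set rules touched only KRT18, and the filter on probe sets at 0 only KRT84. The small moves are therefore no evidence that the medians are firm. Taking KRT18 by either probe set alone and leaving ALB and KRTCAP2 out of the plakin list were chosen after seeing the data. No paired analysis was possible because there was 1 array for each condition, and for the same reason no replicate could be left out. How far the keratin signals lay above background is unknown.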
